A study of Mus musculus with 9 samples.

Results

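PBRM1 (also called BAF180) and BRG1 are both parts of SWI/SNF complexes, and the regions described here are the places where oviductal smooth muscle cells had a PBRM1 peak in every PBRM1 library and a BRG1 peak in no BRG1 library. All peaks of the 6 replicate lists on chromosomes 1 to 19 were merged wherever they shared at least 1 bp, into 81587 regions. The 3 PBRM1 lists all had a peak, and the 3 BRG1 lists had none, at 1000 of them (1.23%), which are called PBRM1-only regions. The opposite pattern, a peak in all 3 BRG1 lists and in no PBRM1 list, was found in 734 regions (0.9%), and 12655 regions held a peak in all 6 lists. Because the peak calls themselves chose the regions, their PBRM1 peak strength and their lack of BRG1 calls are given as a description, without a test.

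The libraries were made by ChIC-Seq from wild-type primary oviductal smooth muscle cells of mice on day 2 of pregnancy (D2), with an anti-PBRM1 or an anti-BRG1 antibody, 3 replicates each and 50000 fixed cells per library. In ChIC-Seq a micrococcal nuclease fused to protein A is carried by the antibody to chromatin, and the DNA fragments it cuts out nearby are sequenced. The mice were 8 to 12 weeks old, and the dissociated cells were held briefly in medium with serum before fixation. The 3 IgG samples of the series were not analysed here, the labels do not say whether replicates came from separate animals, and so spread between replicates may be technical.

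SWI/SNF complexes use the ATPase BRG1 or its paralog BRM to slide or evict nucleosomes. PBRM1 is a bromodomain subunit found in the PBAF form of the complex, whereas BRG1 also drives the BAF and noncanonical forms. In smooth muscle, BRG1 is known to take part in the expression of contractile genes.

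The libraries held 18126049 to 23992352 fragments for PBRM1 and 14284532 to 15897724 for BRG1, so that each PBRM1 library was deeper than each BRG1 library. The number of peaks on chromosomes 1 to 19 ran from 31474 to 37525 for PBRM1 and from 34615 to 38769 for BRG1. As a check of the cell type, 4 of 8 smooth muscle markers had a peak within 2 kb of a start site in all 6 lists (*Acta2*, *Tagln*, *Smtn* and *Mylk*). *Myh11* had one in 1 list and *Cnn1* in none. No epithelial, endothelial, immune or stromal fibroblast marker among the lists' 8, 4, 4 and 4 genes had one in all 6 lists, and 4, 2, 3 and 1 of them had none. The endothelial *Kdr* had one in 5 lists, however, and *Cdh1*, *Csf1r*, *Pdgfra* and *Dcn* had one in 3 each, for *Dcn* the 3 BRG1 lists. Over all protein-coding genes, 8447 of 20780 had a region in all 6 lists at a start site. The smooth muscle count of 4 of 8 is near that share and says little about cell type. A peak near a start site is also not a measure of expression. The nearest gene of a PBRM1-only region was never a smooth muscle marker, and was an endothelial marker for 2 regions (*Cdh5* and *Kdr*). Only 4.24% of all protein-coding genes were nearest to such a region, so 0 of 8 markers is uninformative. The *Cdh5* region lay 566425 bp from its start site.

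**Figure D1:**
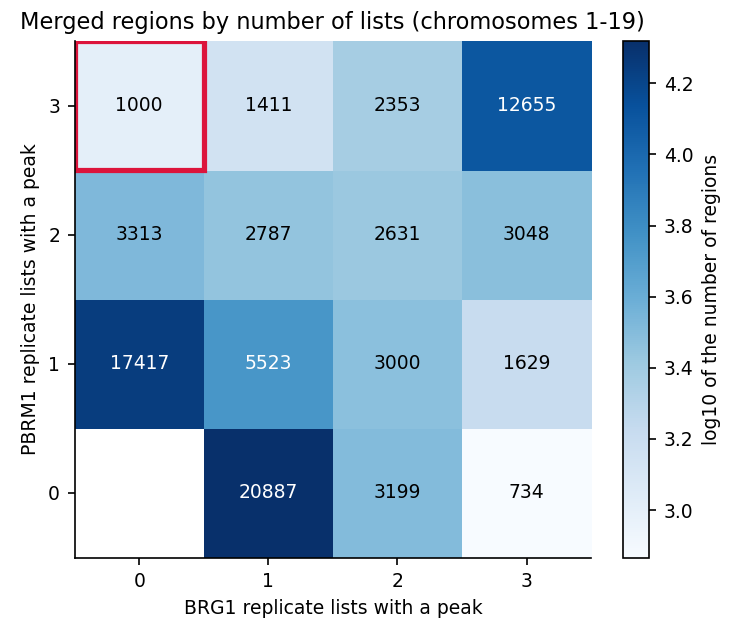
Number of merged regions by how many PBRM1 lists (vertical axis) and BRG1 lists (horizontal axis) held a peak, with color on a log10 scale. The outlined cell holds the 1000 PBRM1-only regions, next to 1411 regions with 3 PBRM1 lists and 1 BRG1 list and 3313 with 2 PBRM1 lists and no BRG1 list.

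Sequences are shown for 6 of the PBRM1-only regions that stood highest by PBRM1 signal, to show where AP-1 and TEAD motifs lie at the summits, since these motifs are counted below. The strongest of them is printed as the exception, and the other 5 are those of the 16 highest-standing regions with an AP-1 match within 100 bp of the summit. Letters are from the plus strand of the GRCm38 reference, each stretch runs 100 bp to either side of the summit, and capitals mark AP-1 matches (TGANTCA) and TEAD matches (GGAATG) on either strand.
Chromosome 9 repeat region (chr9:3002468-3002668): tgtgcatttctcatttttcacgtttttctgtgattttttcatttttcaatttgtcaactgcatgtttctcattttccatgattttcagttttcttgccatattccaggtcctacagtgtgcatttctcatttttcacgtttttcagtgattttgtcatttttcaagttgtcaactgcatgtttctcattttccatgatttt
Intergenic region beyond Stim2 (chr5:55355629-55355829): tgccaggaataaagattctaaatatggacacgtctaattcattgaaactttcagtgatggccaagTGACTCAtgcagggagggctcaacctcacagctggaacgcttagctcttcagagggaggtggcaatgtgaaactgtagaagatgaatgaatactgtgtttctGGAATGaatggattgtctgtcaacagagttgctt
Commd1 intron near Zrsr1 (chr11:22965481-22965681): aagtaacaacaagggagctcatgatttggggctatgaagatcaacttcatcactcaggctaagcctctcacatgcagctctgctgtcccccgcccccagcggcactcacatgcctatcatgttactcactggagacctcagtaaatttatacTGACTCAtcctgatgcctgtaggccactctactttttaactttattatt
Intergenic region upstream of Rgmb (chr17:16301869-16302069): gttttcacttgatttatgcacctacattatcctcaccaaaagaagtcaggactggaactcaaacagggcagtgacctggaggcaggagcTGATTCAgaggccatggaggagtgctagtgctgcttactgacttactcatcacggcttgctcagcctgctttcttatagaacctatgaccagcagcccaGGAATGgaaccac
Intron near Arhgap5 (chr12:52434126-52434326): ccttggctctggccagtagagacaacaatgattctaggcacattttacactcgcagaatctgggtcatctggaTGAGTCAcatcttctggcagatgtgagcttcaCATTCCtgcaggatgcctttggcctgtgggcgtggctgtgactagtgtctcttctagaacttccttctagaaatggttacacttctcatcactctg
Prss2 promoter region (chr6:41523301-41523501): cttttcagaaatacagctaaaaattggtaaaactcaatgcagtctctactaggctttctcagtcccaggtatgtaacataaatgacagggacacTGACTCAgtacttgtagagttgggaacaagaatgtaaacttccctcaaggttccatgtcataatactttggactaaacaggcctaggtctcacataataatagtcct

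The chromosome 9 stretch has neither motif and was soft-masked as repeat over 99.2% of the window reaching 250 bp to either side of its summit. The stretches beyond *Stim2*, upstream of *Rgmb* and near *Arhgap5* hold both motifs. Within 250 bp of the summit, 12 of the 16 highest-standing regions had an AP-1 match. A match is a run of letters and does not show that a factor was bound.

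PBRM1-only regions were peaks of middling strength in each PBRM1 library rather than strong ones. Their median fold enrichment over the local background was 4.16, 4.08 and 4.11 in PBRM1 replicates 1, 2 and 3, beside 4.18, 4.14 and 4.02 for all peaks of the same lists and 4.98, 4.74 and 4.67 for regions in all 6 lists. The median pileup at the summit was 15, 14.5 and 17 fragments. Only 3 regions stood in the strongest 10% of all 3 lists and 155 in the strongest 50%. The median region was 511.5 bp wide (203 to 1477), and 34 regions contained more than 1 peak of a single list.

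The edge of the selection was gradual. Regions just outside it, with 3 PBRM1 lists and 1 BRG1 list, had a median PBRM1 fold enrichment of 4.10 against 4.11 inside it, and those with 2 PBRM1 lists and no BRG1 list had 3.90. The number of regions inside moved with each library. Without PBRM1 replicate 1, 2 or 3 the remaining lists gave 1909, 2561 and 1933 regions, and without BRG1 replicate 1, 2 or 3 they gave 1552, 1451 and 1421. When all lists were held to a −log10 q of at least 5, 353 regions met the same rule, and 117 did when that limit was put on the PBRM1 lists alone.

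The lists called on the 3 replicates pooled rest on more fragments (61910852 for PBRM1 and 45216486 for BRG1). All 1000 regions overlapped a pooled PBRM1 peak, and 609 (60.9%, 95% Wilson interval 57.8 to 63.9) also overlapped a pooled BRG1 peak. The other 391 (39.1%, 36.1 to 42.2) had no BRG1 call in any list. In the converse set, 623 of 734 BRG1-only regions (84.9%) overlapped a pooled PBRM1 peak. At the 609 regions with both pooled peaks, the median pooled pileup was 45 fragments for PBRM1 and 27 for BRG1. Divided by the total of each pooled library, PBRM1 was the higher in 465 of them (76.4%), with a median ratio to BRG1 of 1.19 (interquartile range 1.01 to 1.46). The median ratio was 0.705 at regions in all 6 lists, with PBRM1 higher in 7.4% of them, and 0.609 at BRG1-only regions with both pooled peaks. A peak list records called sites alone, so the BRG1 signal at the 391 regions is not known to be 0.

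To ask whether the pattern carries over to a library that did not choose the sites, each replicate was left out in turn. Sites were chosen by a peak in 2 PBRM1 lists and none in 2 BRG1 lists, and the left-out list of each antibody was then searched. A left-out PBRM1 list held a peak at 56.4%, 43.8% and 56.2% of such sites (replicates 1, 2 and 3; 52.1 ± 7.25%, SD, n = 3). A left-out BRG1 list held one at 30.0%, 25.8% and 25.5% (27.1 ± 2.51%, SD, n = 3). The groups did not overlap, and the difference was 25.03 percentage points (p = 0.1 by a two-sided exact permutation test; 3 against 3 values can give no smaller p). Each choice of lists gave 2594 to 3616 sites. With PBRM1 replicate 1, 2 or 3 removed altogether, so that a single PBRM1 list chose the sites, the difference was 10.93, 14.34 and 10.84 percentage points. For sites chosen the other way round, a left-out BRG1 list held a peak at 48.4 ± 4.97% and a left-out PBRM1 list at 33.3 ± 4.55% (SD, n = 3 each; exact permutation test, p = 0.1). In both directions each value is a mean over choices of sites that share lists with the other values. The values are therefore not independent, and neither the SD nor the permutation test measures the spread between separate libraries.

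PBRM1-only regions lay farther from start sites than BRG1-only regions and regions in all 6 lists. Of the 1000 regions, 145 had their summit within 2 kb of an annotated start site (promoter share 14.5%, 12.5 to 16.8), 24 lay in an exon, 429 in an intron and 402 between genes. The promoter share was 42.8% (39.2 to 46.4) for BRG1-only regions and 64.7% (63.9 to 65.6) for regions in all 6 lists. The median distance to a start site was 13476 bp for PBRM1-only regions, 5236 bp for BRG1-only regions and 199 bp for regions in all 6 lists. Among distal regions these medians lay closer, at 18374, 16357 and 14405 bp. Over all merged regions the promoter share was 30.5% and the median distance 7967 bp. Regions with 2 PBRM1 lists and no BRG1 list had 18.5% and 12250 bp, and those with 1 had 20.3% and 10515 bp. More than 50 kb away lay 18.4% of PBRM1-only regions, 8.72% of BRG1-only regions and 4.5% of regions in all 6 lists. Wilson intervals here treat each region as 1 draw and cover counting error only.

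The 391 regions without a pooled BRG1 peak were the most remote. Their promoter share was 11% (8.27 to 14.5), their median distance 23096 bp, and 49.6% of them lay between genes. The 609 with a pooled BRG1 peak had a promoter share of 16.7% (14.0 to 19.9) and a median distance of 10136 bp. The median gap to the nearest region in all 6 lists was 53048 bp, beside 42798 bp for BRG1-only regions, and 31 of the 1000 lay within 1 kb of one. A BRG1 peak of some replicate list lay within 1 kb of 286 regions (28.6%) without overlapping them.

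**Figure D2:**
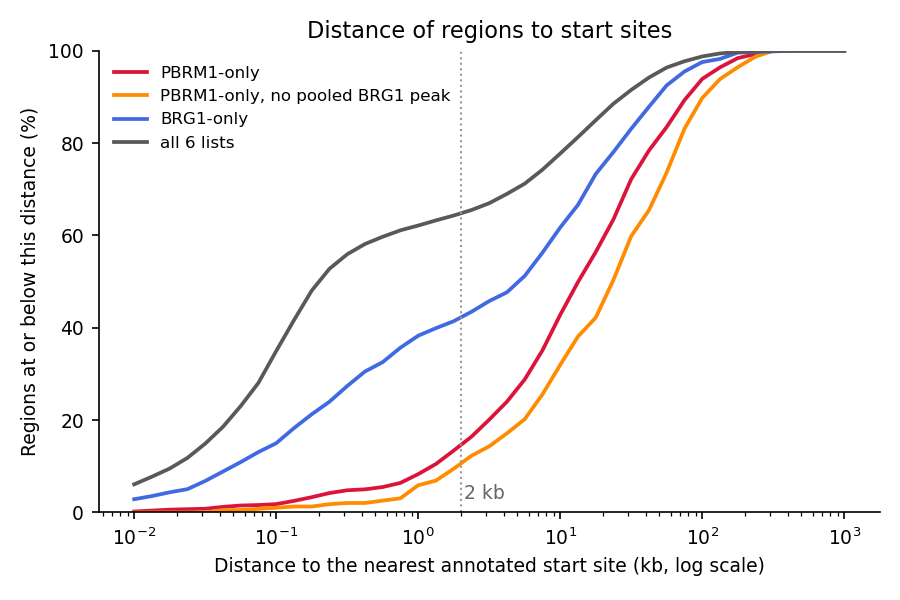
Cumulative share of regions (vertical axis, %) by distance from the summit to the nearest annotated start site (horizontal axis, kb, log scale) for PBRM1-only regions, those of them with no pooled BRG1 peak, BRG1-only regions and regions in all 6 lists. At 2 kb the curves stand at 14.5%, 11%, 42.8% and 64.7%.

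The nearest annotated start site belonged to a protein-coding gene for 50.1% of PBRM1-only regions, 58.3% of BRG1-only regions and 74.5% of regions in all 6 lists. For PBRM1-only regions it belonged to a long noncoding RNA in 18.8% and to a processed pseudogene in 16.4%. In regions of all 6 lists these shares were 13.3% and 5.46%. Of the 145 promoter regions, 95 had a protein-coding gene as nearest, 78 lay upstream and 67 downstream of the start site, and 54 were within 500 bp of it. At 22 of the 145 a region in all 6 lists stood within 2 kb of the same start site. A PBRM1-only region cannot itself be in all 6 lists, so only a second, separate region could count here. Over all protein-coding genes, 8447 of 20780 had a region in all 6 lists at a start site, whereas many of the 145 had another kind of gene as nearest.

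Across chromosomes the density ran from 28.1 PBRM1-only regions per 100 Mb on chromosome 4 to 50.7 on chromosome 18, compared with 368 to 845 for regions in all 6 lists. Chromosome 11, the densest in regions of all 6 lists, had 45.1 PBRM1-only regions per 100 Mb. Few regions were neighbors. Within 50 kb of one another stood 80 regions in 39 groups, and 2 groups had 3 members. The group on chromosome 1 covered 71840 bp upstream of *Sulf1*, a sulfatase that trims heparan sulfate, and the other 47064 bp upstream of *Manea*, an endomannosidase of the Golgi.

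The DNA at PBRM1-only regions held less G and C than that at BRG1-only regions and at regions in all 6 lists. Mean GC content within 250 bp of the summit was 42.7%, against 53.7% at BRG1-only regions and 56.7% at regions in all 6 lists, and 49% over all 81587 merged regions. Leaving promoters aside, distal PBRM1-only regions had 42.0% GC, below distal BRG1-only regions at 47.8% and distal regions in all 6 lists at 49.1%. Promoter regions differed further still, with 47.1% in the PBRM1-only set against 61.6% and 60.8%. The median number of CpG dinucleotides was 4, 10 and 27 in the respective sets. Soft-masked repeats made up 14.6%, 10.7% and 7.21% of bases, and 33 PBRM1-only regions were mostly repeat. The low GC content was shared by regions with fewer PBRM1 lists and no BRG1 list. Their mean was 43.9% with 2 PBRM1 lists and 44.5% with 1, and 43.0% and 43.5% among distal regions.

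Among regions with a peak in all 3 PBRM1 lists, location and base composition moved stepwise with the number of BRG1 lists. The promoter share was 14.5%, 20.6%, 28.5% and 64.7% with 0, 1, 2 and 3 BRG1 lists, and the mean GC content was 42.7%, 46.5%, 48.6% and 56.7%. The same order held within distal regions, with 42.0%, 45.3%, 46.6% and 49.1%. Strength moved with it too: ordered by q from the strongest peak down, the pooled PBRM1 list had regions in all 6 lists at a median of 7.8% of its length and PBRM1-only regions at 19.7%. The 3249 regions of all 6 lists that fell in the interquartile range of PBRM1-only regions in that order, a comparison added after the differences were seen, had a promoter share of 50.7% and a mean GC content of 54.3%, and their distal members 48.6%.

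**Figure D3:**
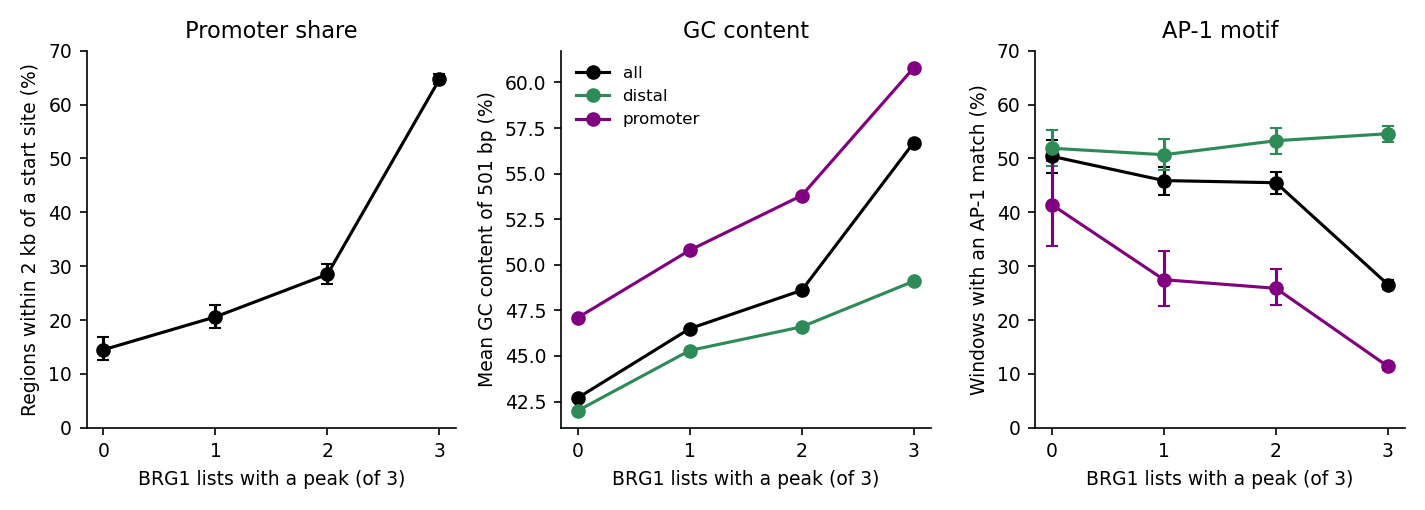
Regions with a peak in all 3 PBRM1 lists, by the number of BRG1 lists with a peak (horizontal axis): promoter share (left, %), mean GC content within 250 bp of the summit (middle, %, axis not starting at 0) and share of windows with an AP-1 match (right, %). Bars are 95% Wilson intervals, and colors separate all, distal and promoter regions. Promoter share rises from 14.5% to 64.7%, whereas the AP-1 share of distal regions stays between 50.7% and 54.6%.

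Motifs were counted within 250 bp of each summit, on both strands, and in equal windows centered 2 kb to either side. AP-1, the motif of FOS and JUN dimers, was found at 50.4% of PBRM1-only regions (47.3 to 53.5) against 14.4% of windows beside them, a ratio of 3.50. The share was 27.0% at BRG1-only regions, 26.6% at regions in all 6 lists and 31.5% over all merged regions. TEAD, the motif of the transcription factors of the Hippo pathway, followed with 42.9% (39.9 to 46.0) against 25.2% beside them, and 26.6% and 27.3% in the other sets. RUNX (TGTGGTT) was found at 15.4% against 10.1%, and the CArG box of serum response factor at 4.4% (3.29 to 5.86) against 2.8%. At least 1 of the AP-1, TEAD and RUNX motifs was present at 771 of the 1000 regions. The same held for 370 of 734 BRG1-only regions and 6074 of 12655 regions in all 6 lists.

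Motifs of GC-rich promoters were less frequent than in the other sets. SP/KLF (GGGCGGG) was found at 3.2% of PBRM1-only regions against 2.3% of windows beside them, and at 21.9% of BRG1-only regions and 39.0% of regions in all 6 lists. ETS (CCGGAAG) was found at 1.6% against 1.1%, and at 6.13% and 17.2% in the other sets. The sets lay closer among distal regions, where the shares of SP/KLF were 2.34%, 6.19% and 9.91% and those of ETS 1.29%, 2.86% and 4.28%. NF-Y (CCAATCA) stood at 5.4% against 6.6% in the windows beside, and the CTCF core at 1.0% against 0.3%. The motif of GATA factors (AGATAA) was found at 32.1% against 27.5%. The forkhead motif (TGTTTAC) stood at 8.1% against 7.75%, and the HAND/TWIST E-box (CATCTG) at 34.8% against 34.2%. The TCF/LEF motif (CTTTGAA or CTTTGAT) stood at 20.4% against 20.2%. The palindrome of nuclear factor I lay at 5 regions and that of the progesterone, glucocorticoid and androgen receptors at 3. NRF1 and estrogen receptor palindromes lay at none, which with 1000 windows allows a share of up to 0.383% by the Wilson interval. AP-1 and TEAD shares hardly depended on the pooled BRG1 peak. They were 51.2% and 43.2% without one and 49.9% and 42.7% with one.

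**Figure D4:**
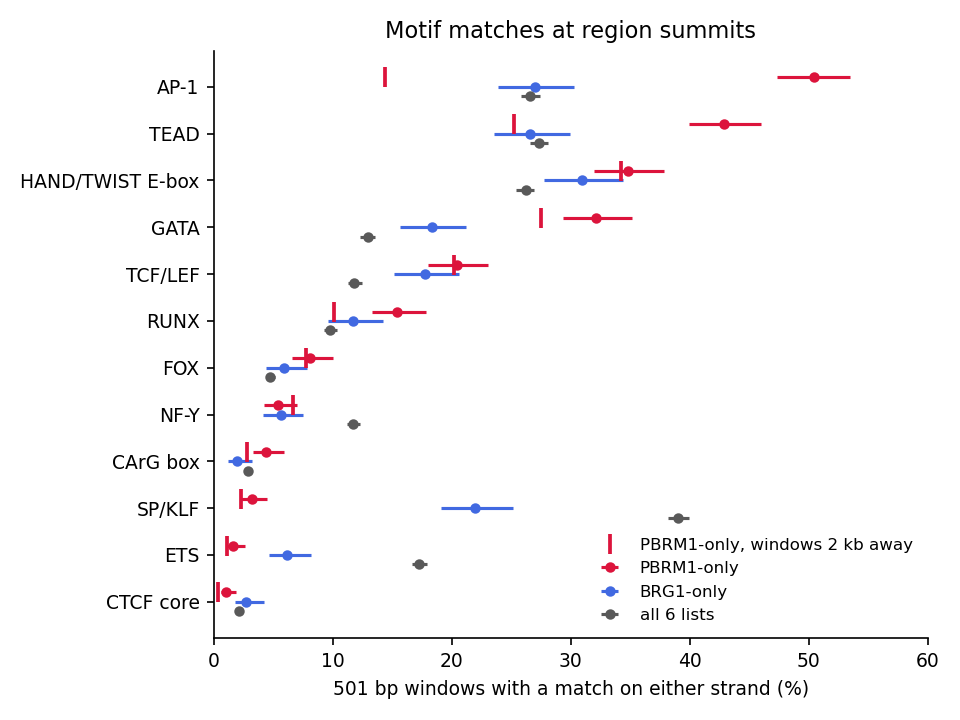
Share of windows reaching 250 bp to either side of the summit with a motif match on either strand (horizontal axis, %) for PBRM1-only, BRG1-only and 6-list regions, with 95% Wilson intervals. Vertical ticks give windows 2 kb to either side of PBRM1-only regions. AP-1 and TEAD stand farthest above the ticks, and SP/KLF and ETS are the motifs most reduced against regions in all 6 lists.

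AP-1 shares differed by location. Among distal regions the AP-1 share was 51.9% (48.6 to 55.3) for PBRM1-only regions, 54.6% (53.1 to 56.1) for regions in all 6 lists and 38.8% (34.3 to 43.6) for BRG1-only regions. The TEAD shares of distal regions were 44.2%, 41.5% and 32.6%. Distal PBRM1-only regions therefore resembled distal sites of both antibodies in these motifs, with overlapping intervals for AP-1, and lay above distal BRG1-only regions. At promoters AP-1 was found at 41.4% (33.7 to 49.5) of 145 PBRM1-only regions and at 11.4% of regions in all 6 lists. These promoter regions differed in place, with medians of 821 and 90 bp from the start site. Among promoter regions with 3 PBRM1 lists and 1 BRG1 list the AP-1 share was 27.5%. With no BRG1 list it was 35.8% for 2 PBRM1 lists and 24.2% for 1. Over all locations the AP-1 share also moved with reproducibility, being 32.5% where 1 PBRM1 list and no BRG1 list had a peak and 43.9% where 2 did.

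To compare antibodies library by library, each library's peaks that overlapped no peak in any list of the other antibody were examined. These peaks were also chosen by the calls, and all 3 libraries of an antibody were filtered by the same 3 lists. The values are therefore not fully independent, which limits the SD and the permutation tests given below. Such exclusive peaks numbered 10422, 7503 and 10444 for PBRM1 replicates 1, 2 and 3 and 11332, 8939 and 10256 for BRG1. Their GC content was 44.0%, 44.5% and 43.8% for PBRM1 and 48.9%, 48.2% and 49.1% for BRG1. The antibodies did not overlap, and PBRM1 was lower by 4.611 percentage points in the mean (44.11 ± 0.333% against 48.72 ± 0.497%, SD, n = 3 each; exact permutation test, p = 0.1, adjusted p = 0.133 over 4 measures). The promoter share was 19%, 20% and 19.7% for PBRM1 and 25.2%, 24.0% and 26.0% for BRG1 (difference of -5.52 percentage points, same p values by the exact permutation test). The median distance to a start site was 11209, 11157 and 11101 bp for PBRM1, above 9482, 10006 and 9282 bp for BRG1 (difference of 1566 bp, same p values by the exact permutation test). Without BRG1 replicate 3 that difference was 960.2 bp. Soft-masked bases did not separate the antibodies over all peaks, with 15.56 ± 0.137% and 15.53 ± 0.561% (SD, n = 3 each; exact permutation test, p = 1). When all lists were held to a −log10 q of at least 5, PBRM1 was higher by 2.003 percentage points without overlap (exact permutation test, p = 0.1), the difference in promoter share was -16.93 percentage points and that in distance 4234 bp. With 3 against 3 no measure could have passed 0.05.

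Counted in the same exclusive peaks after AP-1 had stood out above, and so without a test, AP-1 matches were present at 37.2%, 36.1% and 37.3% of PBRM1 peaks and at 25.3%, 27.3% and 24.7% of BRG1 peaks. Among distal exclusive peaks the shares were 39.5%, 38.5% and 39.5% against 28.8%, 30.9% and 28.0%. All 3 PBRM1 libraries stood above all 3 BRG1 libraries in both counts. Base composition moved with the antibody over whole lists as well: the mean GC content of all peaks was 49.9% to 51.2% for PBRM1 and 52.2% to 52.6% for BRG1. Depth also differed, as given above. The part of either in these differences was not tested.

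**Figure D5:**
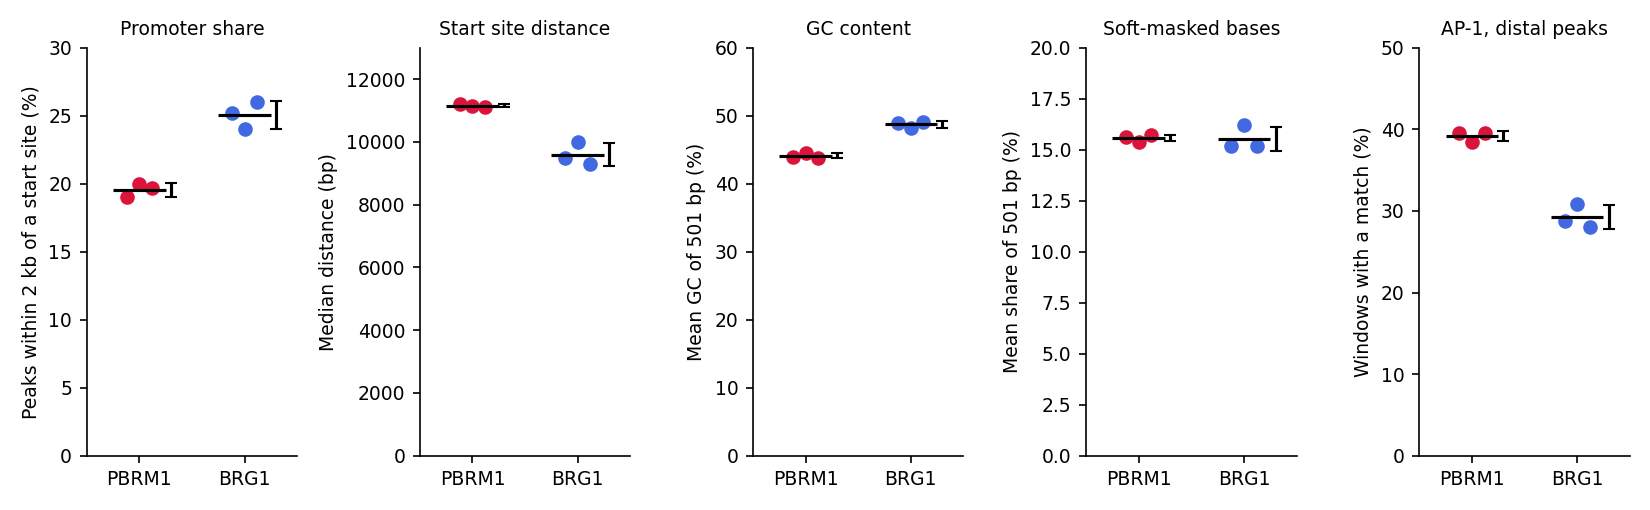
Peaks of each library that overlap no peak of the other antibody: promoter share (%), median distance to a start site (bp), mean GC content (%), soft-masked share (%) and share of distal peaks with an AP-1 match (%). Points are the 3 libraries of an antibody, horizontal lines their mean and bars the SD. With all peaks used, the antibodies separate in every panel but the soft-masked share.

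The region that ranked highest lay at the start of the assembled chromosome 9 (chr9:3002108-3003378), 778 bp upstream of the predicted gene *Gm11168*. Its PBRM1 pileup was 28, 45 and 54 fragments and its fold enrichment 9.95, 14.6 and 11.7 in replicates 1, 2 and 3. It had no pooled BRG1 peak, and almost all of its sequence was soft-masked. Fragments from repeats of many copies can be placed at a single copy, so this value is uncertain.

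The region next in rank was intergenic, 83801 bp upstream of *Mbnl1*, a splicing regulator of muscle (chr3:60388717-60389750). Its fold enrichment was 8.01, 6.95 and 6.88, and the pooled lists gave 8.58 for PBRM1 and 4.63 for BRG1. The third was 781 bp downstream of a start site of *Casp14*, a caspase known from epidermis, with 5.78, 5.56 and 5.41 and a pooled BRG1 fold enrichment of 4.67. A region in an intron of *Dars*, which encodes aspartyl-tRNA synthetase, had 6.06, 7.21 and 5.36, and one in an intron of *Epb41l2*, a protein of the membrane skeleton, had 5.56, 5.46 and 5.11. Pooled, the *Epb41l2* region had 6.06 for PBRM1 and 5.56 for BRG1. The remaining ones were 443274 bp upstream of *Manea*, with 9.43, 8.82 and 7.44 in a window that was 80.2% soft-masked, and in an intron of *Commd1* near *Zrsr1*, a splicing factor gene, with 6.7, 5.62 and 6.36.

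Of the 10 regions of highest rank, 6 had a pooled BRG1 peak and 4 had none. Those 4 led the regions without any BRG1 call. Apart from the chromosome 9 repeat they were an intergenic site 1239872 bp from the start of *Stim2*, which encodes a calcium sensor of the endoplasmic reticulum, a site within the annotated spans of *Fgfr2* and *5430419D17Rik*, and a site 470930 bp upstream of *Rgmb*, a coreceptor for bone morphogenetic proteins. The *Stim2* site had fold enrichments of 8.52, 7.55 and 7.07, a pooled PBRM1 pileup of 66 fragments and no BRG1 replicate peak within 776224 bp. The *Fgfr2* site had 6.57, 7.26 and 8.05, yet a region in all 6 lists lay 130 bp from it. The *Rgmb* site had 8.44, 6.72 and 8.04, with the nearest BRG1 replicate peak 38240 bp away and 51.9% of its window soft-masked. These 3 sites differ widely in how near BRG1 came to them.

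Further regions of high pooled PBRM1 signal and no BRG1 call lay in an intron of *Tcf12*, a helix-loop-helix factor, 69746 bp upstream of *Arhgap5*, and beyond the 3′ end of *Zfp521*, a zinc finger factor, 345638 bp from its start site. Others were near *Nox4*, an NADPH oxidase, near *Reg3b*, a secreted lectin, and 1614 bp downstream of the start site of *Prss2*, a trypsinogen. At *Arhgap5* and *Prss2* a BRG1 replicate peak lay 228 and 177 bp away. The *Tcf12* region leaned on 1 library, with fold enrichments of 4.11, 3.75 and 7.40 in replicates 1, 2 and 3. The *Nox4* region was even, with 6.98, 5.81 and 6.05. *Nox4* was the nearest gene of 3 PBRM1-only regions, 2 of which had no pooled BRG1 peak.

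By nearest start site, the 1000 regions were assigned to 883 protein-coding genes, 4.24% of those on chromosomes 1 to 19. A single region was assigned to 797 genes, and 6 genes had 4 or more. *Adamts5*, which encodes an aggrecanase, *Manea* and the predicted gene *Gm9747* had 5 each. *Cited2*, a transcriptional coregulator, *Mettl15*, a methyltransferase of mitochondrial ribosomal RNA, and *Prkg1* had 4 each. The 5 regions of *Adamts5* lay 226177 to 499849 bp from its start site, and 3 of them had no pooled BRG1 peak. Those of *Cited2* lay 1144422 to 1281670 bp away. Assignment by distance does not show which gene a region acts on. *Prkg1* encodes the cGMP-dependent kinase that relaxes smooth muscle. Of its 4 regions, 3 lay inside its gene body and 2 had no pooled BRG1 peak. The other sets also had regions nearest to these 6 genes. Regions in all 6 lists numbered 5 at *Adamts5*, 1 at *Manea*, 0 at *Gm9747*, 4 at *Cited2*, 5 at *Mettl15* and 1 at *Prkg1*. BRG1-only regions numbered 2 at *Adamts5*, 1 each at *Gm9747* and *Cited2*, and 0 at the others.

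Such counts depend on how much genome a gene has to itself. The stretch of genome nearest to a gene's start sites had a median of 216 kb for genes with a PBRM1-only region, 58.2 kb for genes with a region in all 6 lists and 43.6 kb for all protein-coding genes. Counts of regions in gene groups are therefore given per 100 Mb of this genome as well. The average over all protein-coding genes was 40.6 PBRM1-only and 29.8 BRG1-only regions per 100 Mb. Genes named within the groups were picked after their values were seen.

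Contractile genes of smooth muscle had no PBRM1-only region nearest to any of 29 genes, where 4.24% of all protein-coding genes had one. Of the 29, 19 (65.5%) had a region in all 6 lists, beside 44.5% of all protein-coding genes. The contractile genes also cover only 3.61 Mb, and BRG1-only regions were 0 as well. Of 21 regulators of smooth muscle, only *Tbx18*, a T-box factor of mesenchymal progenitors, had a PBRM1-only region, or 18.4 per 100 Mb, the same as for BRG1-only regions. Of 26 prostaglandin genes, 2 had one, or 40.6 per 100 Mb, equal to the average. These were *Ptger4*, the EP4 receptor, at 222759 bp, and the transporter gene *Slco2a1*, in an intron, with fold enrichments of 3.73, 3.88 and 3.43. Among 28 transcription factors of the reproductive tract, *Esr1*, the estrogen receptor alpha gene, had 2 regions in introns and *Meis1* had 1. That was 30.4 per 100 Mb, below the average, while BRG1-only regions numbered 6 at 5 of these genes, or 60.8 per 100 Mb. The *Esr1* regions had fold enrichments of 3.4, 3.54 and 3.47 (chr10:4776747-4777086) and of 5.04, 4.29 and 4.75 (chr10:4897379-4898074), and both had a pooled BRG1 peak.

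Of 29 genes for SWI/SNF subunits 3 (10.3%) had a PBRM1-only region, beside 4.24% of all genes. Per 100 Mb this was 80 PBRM1-only and 53.3 BRG1-only regions, both above their averages and both resting on 3 regions or fewer. The region at *Pbrm1* itself lay in an exon of its annotation, 4388 bp downstream of a start site and within the span of *Smim4* as well (chr14:31088342-31088967). Its fold enrichment was 4.69, 3.86 and 4.11, and it had no pooled BRG1 peak. The others were an *Arid1b* intron, with a pooled BRG1 peak, and a site 4135 bp from *Bicra*, without one. The *Pbrm1* values are near the medians of the lists.

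Matrix proteases had 15 regions at 8 of 82 genes, or 101 per 100 Mb of the genome nearest to them, beside 40.4 per 100 Mb for BRG1-only regions, and 5 of the 15 belonged to *Adamts5*. *Adamts6* had 3 regions, *Adamts9* had 2, and *Adamts1* had 1 in an exon with fold enrichments of 4.03, 3.7 and 3.73. Collagens had 5 regions at 5 of 42 genes, with 60.3 per 100 Mb, below the 84.4 of BRG1-only regions.

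Cadherins and protocadherins had 15 regions at 10 of 98 genes (10.2%), yet their 53.9 Mb of genome gave 27.8 per 100 Mb, under the average. Pooled BRG1 peaks were absent at 13 of the 15, beside 39.1% of all PBRM1-only regions. Regions without one were also the more remote, with a median of 23096 bp to a start site against 10136 bp. The part of distance in these counts was not tested. *Cdh10* had fold enrichments of 7.42, 6.11 and 5.35, and *Cdh2*, which encodes N-cadherin, and *Pcdh18* had 3 regions each, none with a pooled BRG1 peak. Axon guidance families had 14 regions at 11 of 69 genes (15.9%), with 41.9 per 100 Mb, at the average. Of the 14, 10 had no pooled BRG1 peak, again beside 39.1% of all PBRM1-only regions. Among them *Slit2* had 2, with fold enrichments of 6.61, 5.67 and 7.64 at the nearer one. Potassium channels had 7 regions at 7 of 92 genes, 27.9 per 100 Mb, including an intron of *Kcnma1*, the large-conductance calcium-activated channel of smooth muscle (6.65, 4.36 and 6.11, no pooled BRG1 peak).

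Among signaling groups, Wnt pathway genes had 5 regions at 5 of 53 genes, TGF-beta and BMP genes 6 at 6 of 62, growth factors and their receptors 7 at 5 of 57, and calcium and TRP channels 5 at 5 of 58. Per 100 Mb these were 63.6, 46.4, 49 and 33.6. *Rspo2*, an enhancer of Wnt signaling, had fold enrichments of 4.99, 5.14 and 5.58, and *Vegfa* and *Vegfc* had 2 regions each. Integrins and laminins had 2 regions (33.3 per 100 Mb), forkhead, SOX and TBX factors 7 (39.8), Hox genes 1 (119, in 0.844 Mb), and AP-1 and immediate early genes 3 (59.4), all at *Klf6*. The 383 *Zfp* genes had 15 regions, or 43.0 per 100 Mb, whereas ribosomal protein genes had 1, or 15.7 per 100 Mb, replication-dependent histone genes 0 in 0.562 Mb, and the 1411 olfactory and vomeronasal receptor genes 4, or 6.55 per 100 Mb.

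Few genes of these groups had a PBRM1-only region within 2 kb of a start site, counting every annotated transcript. *Adam32*, a protease family member known from the male germ line, had one 191 bp upstream of a transcript start that lies inside its gene. Its fold enrichments were 4.78, 6.45 and 4.75. At *Mmp16*, a membrane matrix metalloproteinase, the region lay 1935 bp downstream of a start that is likewise inside the gene. It had 5.97, 3.66 and 3.88 and no pooled BRG1 peak. *Col27a1* (2.72, 3.15 and 3.16), *Rps14* (3.32, 2.41 and 2.69) and *Olfr1423* (5.12, 4.01 and 4.42) also had such a region, that of *Olfr1423* again at a start inside the gene. At *Col27a1* a BRG1 replicate peak lay 70 bp from the region.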

How the data were processed

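The 6 replicate and 2 pooled peak lists of the PBRM1 and BRG1 samples were used. The submitters' processing notes name cutadapt, Bowtie2, MACS2 and GRCm38.p5. Per the file headers, the authors' peak caller was MACS 2.2.7.1, run on paired fragments with duplicates kept; they gave no control and set a q cutoff of 0.05 with local background over 10 kb. The deposited values are pileup signal at the summit, fold enrichment as a ratio to the local background, and −log10 p and q. No counts per region were used, so no count model could be fitted. The call without control and unequal depth can add or remove weak peaks.

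Overlaps, distances, motifs and tests were computed with Python 3.11.15 (pandas 2.3.3, scipy 1.17.1, pysam 0.24.0) on the GRCm38.p6 sequence, whose chromosome ends held all peaks, with GENCODE M21 genes. A region's position was the median over 3 lists of the summit of its strongest peak. Promoters lay within 2 kb of any annotated start site, and other regions were called distal. Rank is the percentile by q within a list. Libraries were compared by two-sided exact permutation, with Benjamini-Hochberg adjustment over 4 measures. The functions were tested on simulated peak lists. Named regions were the 10 with the lowest worst rank over the 3 PBRM1 lists, the 10 without a pooled BRG1 peak with the highest pooled PBRM1 q, grouped genes with a region within 2 kb of a start site, and genes nearest to 4 or more regions. Regions and gene lists were chosen with earlier results of these data known. A gene group and its start site region are not reported here.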

Additional observations from a re-analysis of the deposited data

How the results depend on the processing

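Merging peaks up to 200 bp apart and adding chromosome X moved none of the values below beyond their interval. The count of 1000 regions changed to 353 with −log10 q of at least 5 in all lists, 117 with that limit in the PBRM1 lists alone, 391 without regions that had a pooled BRG1 peak, and 1421 to 2561 when 1 library was left out. The share without a pooled BRG1 peak was 17.56% and 51.28% under the 2 q limits, 33.47% with equal numbers of strongest peaks per list, 55.9% against pooled BRG1 peaks of −log10 q of at least 5, 60.4% when a pooled peak had to cover 50% of the region, and 25.64% to 44.47% with 1 library left out. The promoter share was 8.3% within 1 kb, 8.1% for starts of protein-coding transcripts, 11% without a pooled BRG1 peak, and 15.83% to 17.78% with 1 library left out. The median distance was 16603 bp with the q limit in the PBRM1 lists, 23096 bp without a pooled BRG1 peak, 39262 bp to starts of protein-coding transcripts, and 12070 to 12876 bp with 1 library left out. The FOX ratio to flanks was 1.4 in windows of 100 bp to either side of the summit, against 1.05 with 250 bp, and no other motif ratio left its interval.

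Among the tested differences, the soft-masked share turned to -0.5765 and -0.5182 percentage points without BRG1 replicates 1 and 3 (-0.5765 to 0.6115 over all libraries left out in turn), and was 2.003 with −log10 q of at least 5 in all lists (exact permutation p = 0.1); the cause was not tested. The other 4 kept their direction under each alternative run, but none could pass 0.05. With that q limit the differences were 22.93 points held out, -16.93 points in promoter share, 4234 bp and -6.21 points in GC content, and the held-out difference ran from 10.84 to 20.04 points with 1 library left out, where fewer lists choose the sites. With the replicate number as a block, exact sign flips over 3 pairs gave p = 0.25 for the held-out difference of 25.03 points, the smallest possible, and for promoter share, distance and GC content (-5.52 points, 1566 bp and -4.61 points), and p = 1 for the soft-masked share. The labels do not say whether same-numbered libraries belong together. Deviations of same-numbered PBRM1 and BRG1 lists correlated at -0.00206, -0.00334 and -0.00277, and those of differently numbered lists at -0.00123 to 0.00407. All these values are very small, so they cannot decide whether the libraries were paired.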
